A study of Mus musculus with 8 samples.

Results

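Tumours of the radiation-resistant line TC-1/IR were compared with tumours of the parental line TC-1 after both had been treated with radiotherapy and interleukin-7 together. The comparison rests on 1 antibody membrane per line, 2 of the 8 membranes in the study, and covers all 111 entries that each membrane carried. TC-1 cells are mouse tumour cells of epithelial origin that carry the oncogenes E6 and E7 of HPV16. TC-1/IR cells carry them too and are labelled radiation-resistant. Cells were placed under the skin of the right thigh of female C57BL mice, whose age is given as 10 weeks, 300000 cells for TC-1/IR and 100000 for TC-1. Once the mean tumour volume was about 100 mm3, both groups received whole-body gamma irradiation (RT) of 2 Gy on each of 4 days in a row. Both also received 50 µg of rhIL-7-hyFc (IL-7) under the skin on days 0 and 7. This drug is recombinant human IL-7 joined to an Fc domain for a longer life in blood. The other 6 membranes held both lines after buffer, RT alone and IL-7 alone, again with 1 membrane each.

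Tumours were taken at the endpoint and homogenised, and the cleared lysate was measured on the array. The titles call each lysate pooled, whereas the design text speaks of single mice. How many animals each membrane stands for therefore cannot be stated. Since the whole body was irradiated, blood cells and lymphoid organs were exposed as well as the tumour. A tumour lysate holds tumour cells, stroma, blood cells and plasma, and fewer cells of a type cannot be told apart from less protein per cell.

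Cytokines and chemokines are secreted signals that call in immune cells and set their activity, and radiation can release both inflammatory and interferon-driven ones. IL-7 keeps T cells alive and lets them divide, through a receptor that shares the common gamma chain. In a tumour, chemokines such as CXCL9, CXCL10 and CX3CL1 are known for drawing T and NK cells, while CCL22 draws regulatory T cells. IL-1 receptor antagonist, IL-10 and pentraxins are known for restraining or shaping inflammation.

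Each analyte was printed as a pair of spots, and its value is the mean intensity of both, in the arbitrary linear units deposited by the authors. Means below a floor of 2.49 units, which is 1% of the highest analyte mean on any membrane, were set to that floor. An analyte was called higher or lower in TC-1/IR when the membranes differed by at least 1.5-fold, at least 1 of them was above the floor, and their duplicate spots did not overlap. With 1 membrane per group the difference has no replicate check and no p-value. The standard errors (SE) of log2 ratios were computed from the spot pairs and hold technical error alone. Where TC-1/IR was at the floor, the fold is a lower bound, written "at least", and group medians count such ratios at their bound.

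The TC-1/IR membrane was the dimmer of the pair. Its 111 analytes summed to 739 units, the lowest sum of the 8 membranes, against 1173 on the TC-1 membrane. There were 36 analytes above the floor on the TC-1/IR membrane and 78 on the TC-1 membrane, and the 36 were all among the 78. The duplicate spots of analytes above the floor had a median coefficient of variation of 7.17% on the TC-1/IR membrane and 5.19% on the TC-1 membrane. Of the 78 measured analytes, 44 (56.4%) were called lower in TC-1/IR, 2 (2.56%) were called higher and 32 were neither. TC-1/IR was at the floor for 25 of the 44, and the other 19 were above it on both membranes. The median log2 ratio over the 78 analytes was -0.78, and over the 36 above the floor on both membranes it was -0.69, with 31 of them negative.

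**Figure D1:**
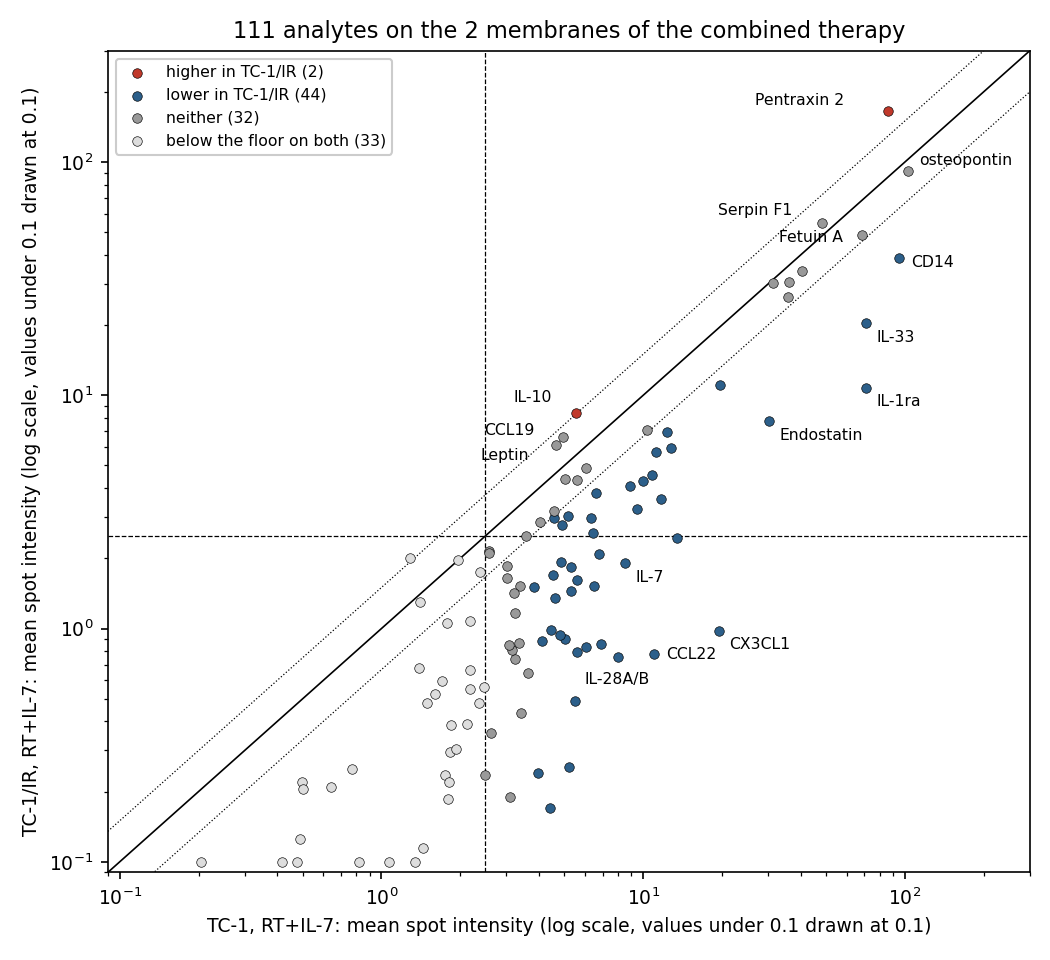
Mean spot intensity of each of the 111 analytes on the TC-1/IR membrane (vertical axis) and the TC-1 membrane (horizontal axis) after RT+IL-7, both on log scales. Solid line, equal intensity; dotted lines, 1.5-fold; dashed lines, the floor of 2.49. Most coloured points lie below the diagonal (44 lower in TC-1/IR), and pentraxin 2 and IL-10 are the 2 above it.

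Whether the general dimming belongs to the tumours or to the amount of lysate on the membrane was not tested, since no reference spots or protein loads were used here. The comparison is therefore given on a second scale too. Each membrane was centred on the median of the 28 analytes above the floor on all 8 membranes, which removed a shift of -0.76 in log2 between the 2 membranes. After centring 13 of the 78 (16.7%) were lower and 11 (14.1%) higher. For 4 of those 11, CXCL13, DPPIV, C5/C5a and periostin, TC-1/IR was at the floor, so no direction can be given to them. That leaves 7 higher (8.97%). All 13 lower analytes were also called before centring, which follows from a shift that is equal for every analyte and is no further evidence. The order of the steps matters here: when membranes were centred before the floor was set, an alternative chosen after seeing the data, 29 were lower and 7 higher.

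**Figure D2:**
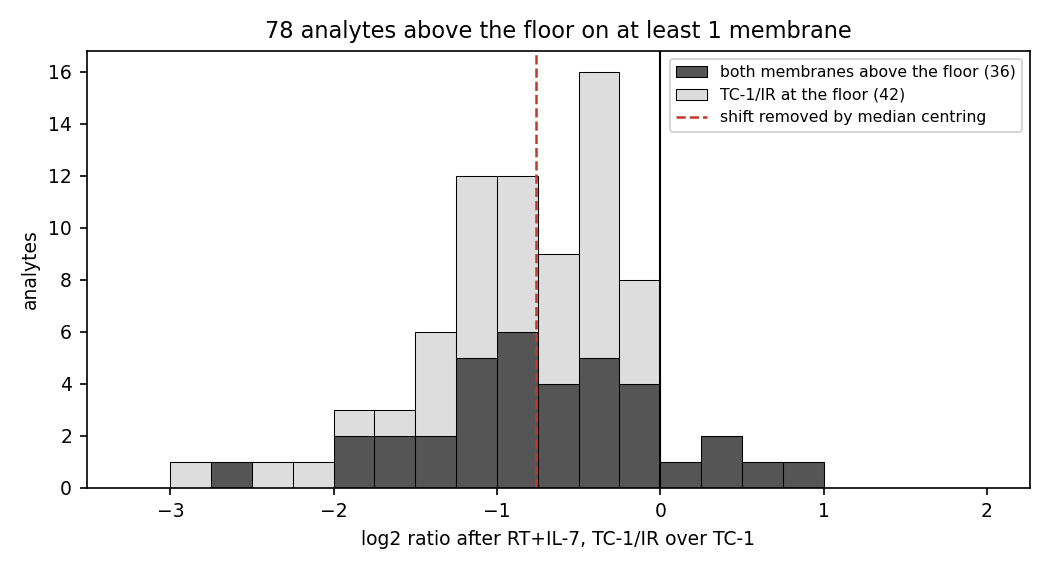
Number of analytes (vertical axis) by log2 ratio of TC-1/IR over TC-1 after RT+IL-7 (horizontal axis, steps of 0.25), for the 78 measured analytes. Dark bars, both membranes above the floor (36); light bars, TC-1/IR at the floor (42), where the ratio is an upper limit. The dashed line marks the shift of -0.76 removed by centring, and few ratios lie right of 0.

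Cytokines of the IL-1 and IL-6 families, grouped with TNF-α as carriers of local inflammation, had 6 of 7 measured members lower in TC-1/IR, where 56.4% of all measured analytes were lower. Their median log2 ratio was -1.22, against -0.78 over all measured analytes. IL-1ra (Il1rn, Entrez 16181), the antagonist that occupies the IL-1 receptor without signalling, had spots of 10.79 and 10.79 in TC-1/IR, against 74.63 and 67.31 in TC-1. That is 6.58-fold lower (log2 -2.72, SE 0.07), with the spots far apart. IL-33 (Il33, Entrez 77125), an alarmin kept in the nuclei of epithelial and stromal cells, had 20.80 and 20.03 in TC-1/IR, against 70.69 and 71.03 in TC-1. It was 3.47-fold lower (log2 -1.80, SE 0.03). IL-11, which signals through gp130 as IL-6 does, averaged 3.24 in TC-1/IR and 9.48 in TC-1, or 2.93-fold lower (log2 -1.55, SE 0.13). LIF, another gp130 cytokine, averaged 4.29 in TC-1/IR and 10.0 in TC-1, or 2.33-fold lower. These 4 were above the floor in both lines.

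IL-1α and TNF-α were below the floor in TC-1/IR, at 1.45 and 0.170 units, while TC-1 had 5.31 and 4.40. They were at least 2.13-fold and at least 1.77-fold lower. IL-1β read 0.805 in TC-1/IR and 3.16 in TC-1, too close to the floor for a call, and IL-6 was below the floor in both lines. After centring 3 members remained lower, IL-1ra at -1.96, IL-33 at -1.03 and IL-11 at -0.79.

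Chemokines for T and NK cells did not move as a block. CX3CL1 (Cx3cl1, Entrez 20312), also called fractalkine, a chemokine shed from the surface of epithelium and endothelium, showed the largest difference of the 78. Its spots were 0.82 and 1.14 in TC-1/IR, against 20.24 and 18.57 in TC-1, so it was at least 7.79-fold lower (log2 at most -2.96). The TC-1 value of 19.4 was the highest CX3CL1 reading of the 8 membranes, while TC-1/IR read 1.28 after buffer, 8.59 after RT and 0.570 after IL-7. CXCL9, an interferon-induced ligand of CXCR3, averaged 3.81 in TC-1/IR and 6.60 in TC-1, or 1.73-fold lower (SE of the log2 ratio 0.11).

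CXCL10, another ligand of CXCR3 induced by interferon, was not called. Its spots were 36.27 and 31.75 in TC-1/IR, against 40.79 and 40.11 in TC-1 (log2 -0.25, SE 0.10). Both were the highest CXCL10 values of their line over the 4 treatments. The next highest, after RT alone, were 27.4 in TC-1/IR and 21.7 in TC-1. CXCL16 read 4.34 in TC-1/IR and 5.58 in TC-1, with 1 TC-1/IR spot of 3.13 and the other of 5.54, and was not called. CXCL11, the third CXCR3 ligand, was at the floor in TC-1/IR and 3.24 in TC-1. CCL5 and CCL3/CCL4 were below the floor in both lines. In all 2 of 5 measured members were lower, against 56.4% of all measured analytes, and 1, CX3CL1, remained so after centring.

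All 3 chemokines that draw type 2 cells, regulatory T cells and eosinophils were lower in TC-1/IR, against 56.4% of all measured analytes, with a median log2 ratio of -1.33. CCL22 (Ccl22, Entrez 20299) had spots of 0.73 and 0.82 in TC-1/IR, against 11.60 and 10.38 in TC-1, so it was at least 4.41-fold lower. CCL17, which shares the receptor CCR4 with CCL22, averaged 2.56 in TC-1/IR and 6.45 in TC-1, or 2.52-fold lower (SE of the log2 ratio 0.18). CCL11, an eosinophil attractant, averaged 2.78 in TC-1/IR and 4.91 in TC-1, or 1.77-fold lower. After centring CCL22 alone of the 3 was still called, at -1.38, and CCL17 fell just short at -0.57.

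Among lymphoid homing factors the picture was different. CCL19 (Ccl19, Entrez 24047), which guides T cells and dendritic cells through CCR7, had 6.67 and 6.52 in TC-1/IR, against 5.10 and 4.80 in TC-1. The ratio of 1.33-fold did not reach the threshold (log2 0.41, SE 0.05), although the spots did not overlap. After centring CCL19 was called higher at 1.17. CXCL13, a B cell attractant, read 2.62 in TC-1 and was at the floor in TC-1/IR, and CCL20, CCL21 and BAFF were below the floor in both lines.

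Lymphocyte cytokines were near or below the floor in TC-1/IR, with IL-10 as the exception. IFN-γ, the main effector cytokine of T and NK cells, read 0.255 in TC-1/IR and 5.23 in TC-1, at least 2.10-fold lower. IL-4 and IL-13, the type 2 cytokines, read 0.835 and 1.94 in TC-1/IR and 6.03 and 4.86 in TC-1, at least 2.42-fold and at least 1.95-fold lower. IL-10 (Il10, Entrez 16153), which damps antigen presentation and inflammation, had spots of 9.12 and 7.72 in TC-1/IR, against 5.66 and 5.38 in TC-1. It was 1.53-fold higher (log2 0.61, SE 0.13), just inside the threshold, and with the second spot alone the log2 ratio was 0.52 and the call was lost. After centring IL-10 stood at 1.37. IL-5 read 0.645 in TC-1/IR and 3.63 in TC-1 without a call, and IL-3, IL-22 and GM-CSF were below the floor in both lines.

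Both measured T cell growth cytokines were lower, against 56.4% of all measured analytes. The IL-7 reading (Il7, Entrez 16196) had spots of 1.64 and 2.17 in TC-1/IR, against 8.25 and 8.81 in TC-1, so it was at least 3.43-fold lower although both groups of mice had received the drug. In TC-1 the reading was 13.15 after buffer and 13.915 after RT, both without the drug, and 12.47 after IL-7 alone. In TC-1/IR it was 0.595 after buffer, 3.795 after RT and 4.69 after IL-7 alone. The sources used here do not say whether the mouse antibody also detects human IL-7, and the part of the drug in these readings was not tested. IL-15, which sustains NK and memory T cells, averaged 6.95 in TC-1/IR and 12.3 in TC-1, or 1.78-fold lower, and IL-2 was below the floor in both. After centring IL-7 remained lower at -1.02 and IL-15 stood at -0.07.

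Cytokines and receptors of antigen-presenting cells had 4 of 5 measured members lower, against 56.4% of all measured analytes. IL-28A/B, the interferon lambdas, had spots of 0.84 and 0.67 in TC-1/IR, against 8.03 and 7.99 in TC-1, at least 3.22-fold lower. CD40, the receptor through which T cells license these cells, read 0.860 in TC-1/IR and 6.90 in TC-1, at least 2.77-fold lower. IL-27 p28 was at least 2.21-fold lower, and IL-12 was 2.12-fold lower at 2.99 in TC-1/IR and 6.33 in TC-1. The TC-1/IR spots of IL-12 were uneven at 2.22 and 3.76, the first of them below the floor. Flt-3 ligand was not called, and IL-23 was below the floor in both. IL-28A/B and CD40 remained lower after centring, at -0.93 and -0.71.

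All 4 measured granule and myeloid products were lower in TC-1/IR, against 56.4% of all measured analytes. CD14 (Cd14, Entrez 12475), the endotoxin coreceptor of monocytes and macrophages, had spots of 39.36 and 37.98 in TC-1/IR, against 95.84 and 93.53 in TC-1, or 2.45-fold lower (log2 -1.29, SE 0.03). Myeloperoxidase, the peroxidase of neutrophil granules, averaged 4.08 in TC-1/IR and 8.88 in TC-1, or 2.18-fold lower, with TC-1/IR spots of 5.00 and 3.15. Pentraxin 3, an opsonin made by myeloid and stromal cells, and chitinase 3-like 1 were at least 2.71-fold and at least 1.53-fold lower. After centring pentraxin 3 remained lower (-0.68), and CD14 (-0.53) and myeloperoxidase (-0.36) were not called. Lipocalin-2, MMP-9 and CD93 were below the floor in both lines.

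Of the chemokines and growth factors for these cells, 2 of 3 measured for monocytes and 2 of 3 for neutrophils were lower, against 56.4% of all measured analytes. M-CSF, the growth factor of macrophages, averaged 4.57 in TC-1/IR and 10.8 in TC-1, or 2.37-fold lower, with uneven TC-1/IR spots of 3.37 and 5.76 (SE of the log2 ratio 0.39). CCL12, a monocyte attractant of the mouse, was 1.53-fold lower, and CCL6, at the floor in TC-1/IR and 3.58 in TC-1, was not called. CXCL2 and G-CSF, which recruit and produce neutrophils, were at least 1.94-fold and at least 1.81-fold lower. LIX read 0.865 in TC-1/IR and 3.34 in TC-1 without a call, and CXCL1, IL-17A and CCL2 were below the floor in both. None of these was called after centring.

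**Figure D3:**
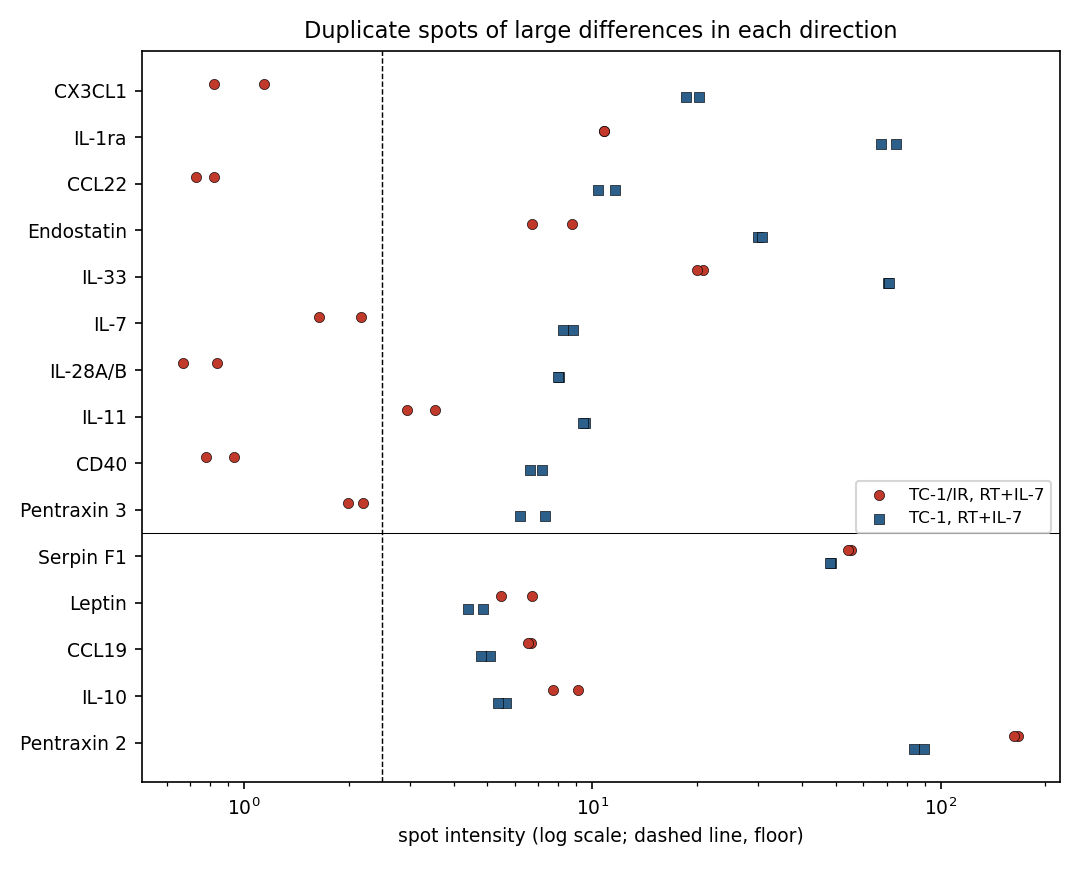
Both spots of each analyte (horizontal axis, intensity on a log scale) for 10 of the 12 analytes with the most negative ratios and the 5 with positive ratios, of which pentraxin 2 and IL-10 were called higher, red circles for TC-1/IR and blue squares for TC-1, both after RT+IL-7. The dashed line is the floor of 2.49. Spots of the lines do not overlap in any row, and those of CX3CL1, CCL22, IL-28A/B and CD40 in TC-1/IR are all below 1.2 units.

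Vessel and matrix proteins split. Endostatin (Col18a1, Entrez 12822), a collagen XVIII fragment that restrains vessels, had spots of 6.72 and 8.74 in TC-1/IR, against 29.86 and 30.64 in TC-1. It was 3.91-fold lower (log2 -1.97, SE 0.19), and -1.21 after centring. Serpin F1, or PEDF (Serpinf1, Entrez 20317), also a vessel inhibitor, had 55.25 and 54.22 in TC-1/IR, against 48.36 and 48.30 in TC-1. Its log2 ratio of 0.18 (SE 0.01) missed the threshold and became 0.94 after centring, where it was called higher. Both inhibitors of vessel growth therefore differed between the lines in opposite directions on the centred scale.

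MMP-2, a gelatinase, averaged 5.93 in TC-1/IR and 12.8 in TC-1, or 2.16-fold lower. Osteopontin, one of the strongest signals of the array, averaged 91.7 in TC-1/IR and 103 in TC-1 (log2 -0.17), and on the centred scale it was called higher at 0.59. Cystatin C, a protease inhibitor found in most tissues, averaged 30.6 in TC-1/IR and 36.1 in TC-1 (log2 -0.24), and DKK-1, a Wnt antagonist, 4.88 in TC-1/IR and 6.06 in TC-1. Neither was called. Periostin was at the floor in TC-1/IR and 2.49 in TC-1, and MMP-3 and WISP-1 were below it in both.

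VEGF, the main growth factor of vessels, read 0.790 in TC-1/IR and 5.58 in TC-1, at least 2.24-fold lower. Proliferin was at least 2.01-fold lower, and FGF acidic was 1.70-fold lower at 3.03 in TC-1/IR and 5.15 in TC-1. Amphiregulin, angiopoietin-2 and EGF, with log2 ratios between -0.50 and -0.31, were not called. Angiopoietin-1, HGF, endoglin and PD-ECGF were below the floor in both lines. None of these growth factors was called after centring.

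Among coagulation and platelet factors 1 of 3 measured members was lower, against 56.4% of all measured analytes. Tissue factor, the starter of coagulation, averaged 30.3 in TC-1/IR and 31.4 in TC-1, with TC-1/IR spots as far apart as 22.95 and 37.57, so the centred call of higher (0.71) rests on uneven spots. PDGF-BB, a platelet growth factor, averaged 4.37 in TC-1/IR and 5.04 in TC-1 without a call. P-selectin, thrombopoietin, E-selectin, ICAM-1 and VCAM-1 were below the floor in both.

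Plasma proteins held the clearest increase. Pentraxin 2 (Apcs, Entrez 20219), the serum amyloid P component that liver secretes into blood, had spots of 166.82 and 162.63 in TC-1/IR, against 89.39 and 83.67 in TC-1. It was 1.90-fold higher (log2 0.93, SE 0.05) and 1.69 after centring. It made up 22.3% of the summed signal of the TC-1/IR membrane. Other plasma proteins did not follow it. Fetuin A, a liver protein that binds mineral, averaged 48.4 in TC-1/IR and 68.8 in TC-1 (log2 -0.51), and angiopoietin-like 3, also from liver, had the same log2 ratio of -0.51.

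LDL R, the receptor that clears low-density lipoprotein, averaged 5.70 in TC-1/IR and 11.2 in TC-1, or 1.96-fold lower, but -0.21 after centring. FGF-21 was at least 2.24-fold lower. RBP4 and C5/C5a were at the floor in TC-1/IR and at 3.00 and 2.58 in TC-1, and CRP was below the floor in both.

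Of the adipose products, leptin, the hormone of fat mass, had spots of 6.73 and 5.49 in TC-1/IR, against 4.86 and 4.39 in TC-1. Its ratio of 1.32-fold was not called (log2 0.40, SE 0.16), while on the centred scale it was, at 1.16. Complement factor D, at 26.3 in TC-1/IR and 35.8 in TC-1, and chemerin, at 7.13 in TC-1/IR and 10.3 in TC-1, were not called on either scale. Pref-1, an inhibitor of fat cell differentiation, was at least 2.61-fold lower and -0.63 after centring. Adiponectin had uneven spots in both lines, 2.65 and 1.07 in TC-1/IR, against 4.65 and 1.40 in TC-1, and resistin was below the floor in both.

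IGF binding proteins, which hold insulin-like growth factors in tissue and plasma, had 3 of 4 measured members lower, and their median log2 ratio of -0.78 equalled that of all measured analytes, of which 56.4% were lower. IGFBP-6 had spots of 11.40 and 10.67 in TC-1/IR, against 19.37 and 19.78 in TC-1, or 1.77-fold lower (SE of the log2 ratio 0.05). IGFBP-2 and IGFBP-3 were at least 1.86-fold and at least 1.65-fold lower, IGFBP-5 was not called, and IGFBP-1 was below the floor in both. GDF-15, a stress-induced cytokine, was at least 2.12-fold lower and TIM-1, a marker of injured epithelium, at least 1.59-fold lower, while Reg3G was not called. Gas 6, the ligand of the TAM receptors, was at least 1.79-fold lower. CD160 and DPPIV were at the floor in TC-1/IR and at 3.07 and 2.59 in TC-1 without a call. Osteoprotegerin and RAGE were below the floor in both. After centring none of the members in this paragraph was called lower.

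**Figure D4:**
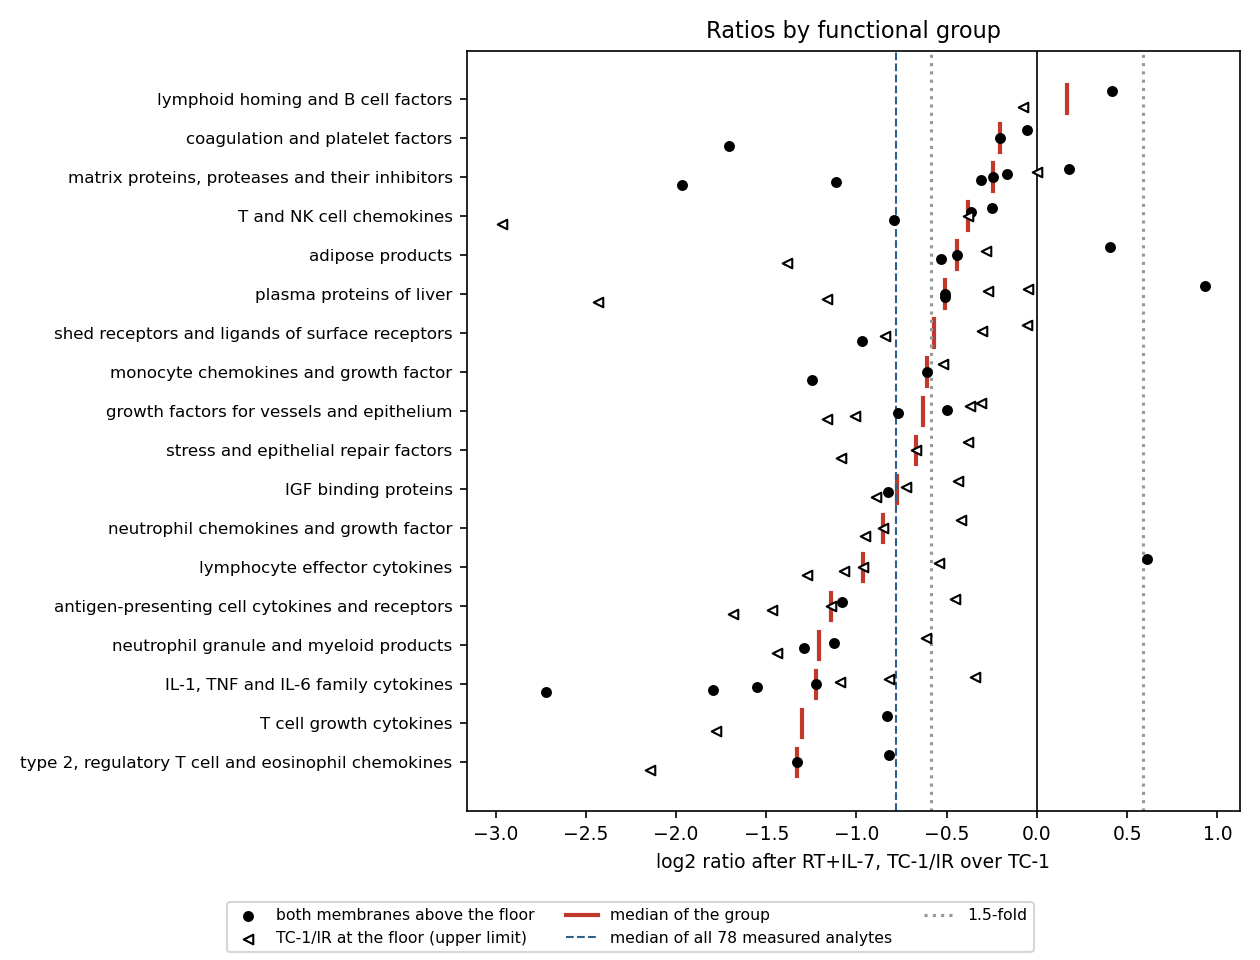
Log2 ratio of TC-1/IR over TC-1 after RT+IL-7 (horizontal axis) for the 78 measured analytes, by functional group and ordered by group median (red bars). Filled circles, both membranes above the floor; open triangles, TC-1/IR at the floor, where the ratio is an upper limit. The blue dashed line is the median of all 78 (-0.78), and the groups at the bottom reach a median of -1.33.

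The array holds few cell type markers and none that defines the TC-1 cells themselves. The 2 monocyte and macrophage markers (CD14 and chitinase 3-like 1) summed to 40.2 units in TC-1/IR and 98.5 in TC-1, the lowest sums of either line over the 4 treatments. The 2 neutrophil markers (myeloperoxidase and lipocalin-2) summed to 4.26 in TC-1/IR and 10.7 in TC-1, also the lowest of either line. In TC-1 these lows were close to RT alone, where CD14 read 94.865 against 94.685 after the combination, and myeloperoxidase 9.105 against 8.88. Lipocalin-2, below the floor in both, went the other way. Both combination membranes also had the lowest summed signal of their line. Of the 3 T cell products (IFN-γ, IL-2 and CD160), 0 were above the floor in TC-1/IR and 2 in TC-1, where 36 and 78 of all 111 analytes were. Their sum was 1.13 in TC-1/IR and 8.71 in TC-1. Over the 4 treatments this sum ranged from 0.05 to 1.15 in TC-1/IR and from 5.84 to 9.51 in TC-1. The 5 plasma proteins (pentraxin 2, fetuin A, CRP, RBP4 and C5/C5a) summed to 217 in TC-1/IR and 161 in TC-1, and the 4 endothelial markers were below the floor in both lines. The 4 adipose markers summed to 34.4 in TC-1/IR and 43.9 in TC-1, and the 2 platelet markers to 4.66 in TC-1/IR and 6.87 in TC-1. Sums were thus lower on the dimmer TC-1/IR membrane for all marker groups with members above the floor, except the plasma proteins. That exception rests on pentraxin 2 alone, at 164.725 in TC-1/IR and 86.53 in TC-1. Fetuin A was lower, at 48.4 in TC-1/IR and 68.8 in TC-1. RBP4 and C5/C5a were at the floor in TC-1/IR only, and CRP was below it in both lines. CD14, chitinase 3-like 1, myeloperoxidase and IFN-γ are themselves among the analytes called lower above, so their sums add no separate evidence. The part of any cell type in the decreases was not tested.

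The values nearest to the threshold show how the calls depend on it. Inside it on the lower side stood CCL12 at 1.53-fold, chitinase 3-like 1 at 1.53-fold and TIM-1 at 1.59-fold. Outside it stood IL-5 at 1.46-fold, chemerin at 1.45-fold and CCL6 at 1.44-fold. On the higher side only IL-10 and pentraxin 2 were inside, and CCL19, leptin and Serpin F1 (1.13-fold) were the nearest outside. At a threshold of 2-fold 28 analytes were lower and 0 higher.

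The same contrast of the lines was then set beside the other 3 treatments, which used other membranes. After buffer 37 of 72 measured analytes were lower in TC-1/IR (51.4%) and 3 higher (4.17%) as deposited. After RT alone 33 of 90 were lower (36.7%) and 12 higher (13.3%), and after IL-7 alone 53 of 93 were lower (57.0%) and 6 higher (6.45%). Centring changed this balance. On the centred scale 15 were lower (20.8%) and 18 higher (25.0%) after buffer, 41 lower (45.6%) and 10 higher (11.1%) after RT, and 32 lower (34.4%) and 12 higher (12.9%) after IL-7. Of the 18 higher after buffer, 3 had TC-1/IR at the floor and so no direction. Of the 44 analytes lower after the combination, 30 were also lower after buffer, which is 68.2% of the 44 and 81.1% of the 37. After RT 24 were shared (54.5% of the 44 and 72.7% of the 33), and after IL-7 31 (70.5% of the 44 and 58.5% of the 53). Of the 13 lower on the centred scale, 8 were shared with buffer (61.5% of the 13 and 53.3% of the 15). With RT 9 were shared (69.2% of the 13 and 22.0% of the 41), and with IL-7 10 (76.9% of the 13 and 31.2% of the 32). Across the 28 analytes above the floor on all membranes, the log2 ratios after the combination correlated with those after buffer at r = 0.71, after RT at 0.59 and after IL-7 at 0.53. These are correlations across analytes of the same array, which are not independent replicates.

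CCL11, CCL22, endostatin, FGF-21, Gas 6, IGFBP-2, IL-1ra, IL-4, IL-7, IL-11, IL-27 p28, IL-28A/B, LDL R and TIM-1 were among the 15 of the 44 that were called lower under all 4 treatments as deposited. A further 14 were called lower under 2 of the other treatments and 12 under 1. FGF acidic, IGFBP-3 and IGFBP-6 were called lower after the combination but under none of the others. Pentraxin 2 had positive log2 ratios throughout, 0.55, 0.72, 1.11 and 0.93 after buffer, RT, IL-7 and the combination. IL-10 did too, at 0.85, 0.70, 0.50 and 0.61. Each of them was called in 2 of the other 3 treatments.

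A few analytes are given under all 4 treatments, as deposited and then after centring. The log2 ratio of Serpin F1 was 0.56, 1.68 and 1.25 after buffer, RT and IL-7, and 0.18 after the combination. IL-33 was -1.16, -0.87 and -0.50, and then -1.80. Leptin was negative after buffer, RT and IL-7, at -0.88, -0.33 and -0.61, and positive after the combination, at 0.40.

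**Figure D5:**
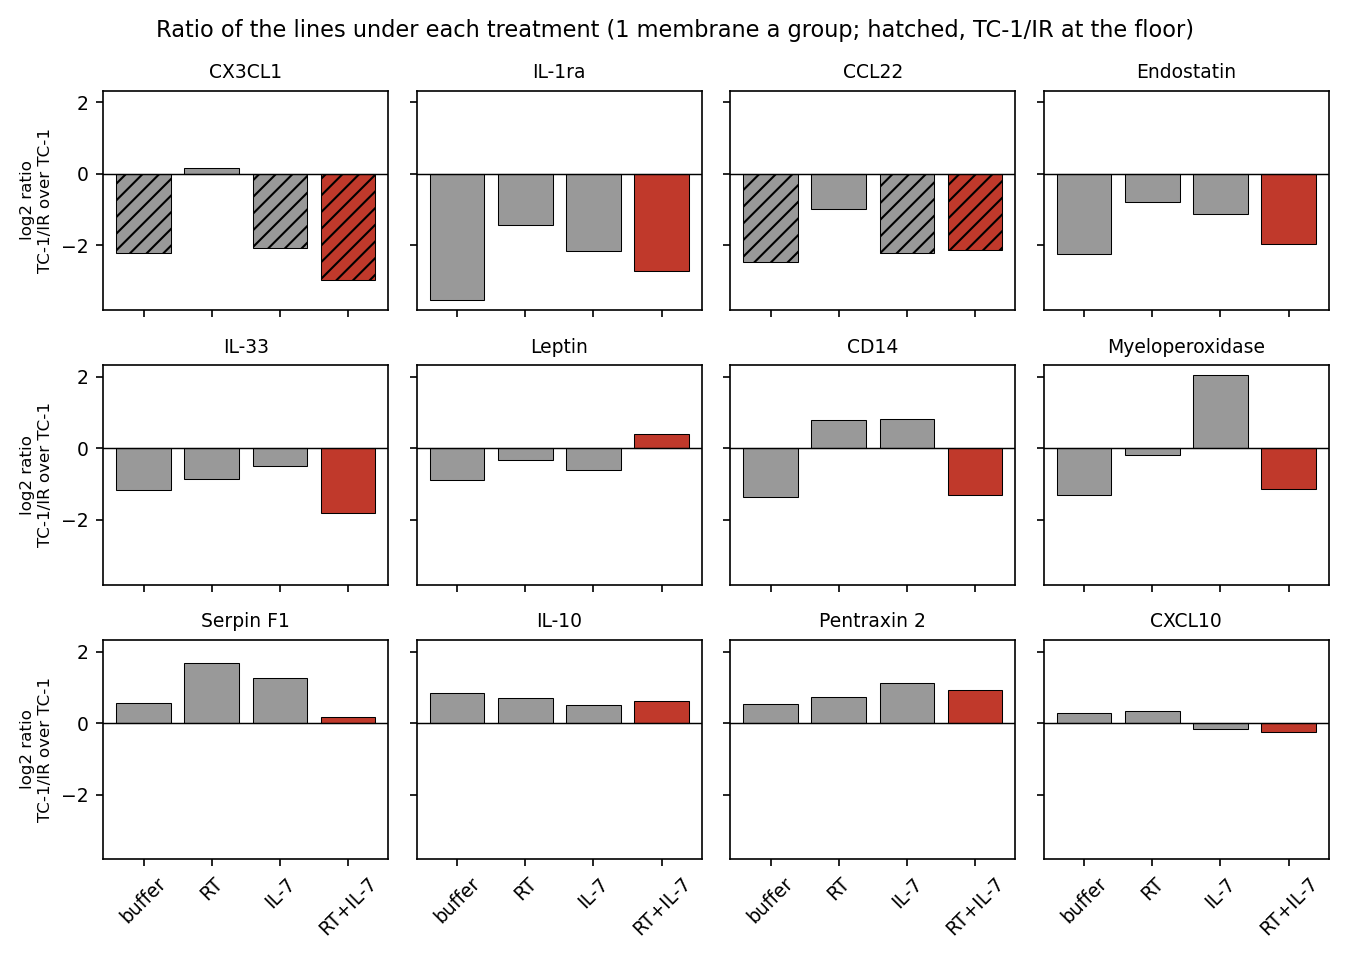
Log2 ratio of TC-1/IR over TC-1 (vertical axis) after buffer, RT, IL-7 and RT+IL-7 for 12 analytes, 1 membrane per line and treatment, with the combination in red. Hatched bars are upper limits, with TC-1/IR at the floor. CD14 and myeloperoxidase are below 0 after the combination (-1.29 and -1.12) and above 0 after IL-7 (0.83 and 2.05), and after centring the combination values are -0.53 and -0.36, neither of them called. Pentraxin 2 and IL-10 are above 0 throughout.

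Whether the ratio after the combination differed from the mean ratio under the other 3 treatments was tested with limma on all 8 membranes. Line and treatment were further terms, and 2 residual degrees of freedom remained. With no replicate membranes, the spread in this test is how the ratio of the lines varied among buffer, RT and IL-7. It mixes error between membranes with any effect of these treatments on the ratio, so the p-values are not measured against replicate error. At an adjusted p under 0.05, 0 of 75 were called by limma (0.0%), and none passed an unadjusted 0.05 either. The limma adjusted p was 0.992 or above for every analyte. Leptin, among those with the smallest p, had a difference of 1.01 (limma adjusted p = 0.992). It was followed by IGFBP-6 at -1.05, IL-33 at -0.95, CX3CL1 at -1.59, Serpin F1 at -0.98 and CD14 at -1.39, each with the same limma adjusted p = 0.992. After centring the count was again 0 of 75 (0.0%), none passed an unadjusted 0.05, and leptin ranked first (1.42, SE 0.83, limma adjusted p = 0.993). On this scale limma gave every analyte the same SE of 0.83. That SE is a spread pooled over analytes and not the spread of leptin itself. FGF acidic, IGFBP-3 and IGFBP-6, called lower after the combination but under no other treatment, had differences of -0.83, -0.73 and -1.05 that did not pass. No ratio was therefore shown to be particular to the combined therapy.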

How the data were processed

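Lysates of 8 mouse tumours or tumour pools were measured on an antibody array (Proteome Profiler Mouse XL Cytokine Array Kit, per the labels' protocols). The authors deposited spot intensities on a linear scale, 222 spots per membrane. The sources used here name neither the image software nor any background correction. The membrane files and the series table held identical values, with 0 differing. Duplicate spots were averaged, a floor of 2.49 (1% of the highest analyte) was set, and log2 ratios were taken. Entrez identifiers of all 111 entries matched RefSeq symbols. Analytes under the floor are bounds.

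Limma 3.58.1 in R 4.3.3 was fitted to 75 analytes that exceeded the floor on 4 or more of 8 membranes, with Benjamini-Hochberg adjustment and a threshold of 0.05. It was tested on simulated data without a floor, with planted changes larger than any difference found for the 75 analytes with all 8 membranes. Whether the fit can detect differences of the size in these data was therefore not tested. The contrast, the 19 lists and the naming rule were chosen with earlier results of these data known. Named analytes were the 12 largest ratios per direction, the 10 largest after centring, the 8 smallest limma p on each scale, IL-7 and those nearest the threshold; members of a list above the floor were also given. Some analytes that this rule names are not reported here. Alternatives were floors of 0.5% and 2%, a 2-fold threshold, single spots, overlapping spots allowed, other scalings, and for limma other filters, an intensity trend and leaving out membranes. Centring before the floor, and asking that the higher membrane be above it, were added after seeing the data. The number of arrays limits the precision.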

Additional observations from a re-analysis of the deposited data

Results flagged for a closer look

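In 4 analytes the lines differed in opposite directions after the combination and after a single agent, by at least 1.5-fold each time, on the scale as deposited. After centring none of these reversals reached 1.5-fold on both sides. The combination ratios were -0.53 for CD14, -0.36 for myeloperoxidase, -0.19 for CXCL2 and -0.066 for IGFBP-6, none of them called. The signs stayed opposite, and the centred single-agent ratios were called higher. They were 0.67 after RT and 1.24 after IL-7 for CD14, and 2.46 after IL-7 for myeloperoxidase. After RT they were 0.75 for CXCL2 and 0.63 for IGFBP-6. CD14 had a log2 ratio of TC-1/IR over TC-1 of -1.29 after RT+IL-7, against 0.80 after RT and 0.83 after IL-7, with TC-1/IR levels of 38.7, 166 and 179 units. Myeloperoxidase had -1.12 after RT+IL-7, against 2.05 after IL-7, where the TC-1/IR membrane read 102 units. CXCL2 had -0.95 after RT+IL-7, against 0.88 after RT, and its combination value is a bound. IGFBP-6 had -0.83 after RT+IL-7, against 0.76 after RT. Each value comes from 1 membrane per line, and the difference between any 2 of these treatments was not tested. Against the mean of the other 3 treatments the differences were -1.39 for CD14, -1.31 for myeloperoxidase, -0.55 for CXCL2 and -1.05 for IGFBP-6, each with a limma adjusted p = 0.992.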

How the results depend on the processing

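The count of 44 analytes lower was 64 with a floor of 0.5%, 18 with a floor of 2% and 28 with a 2-fold threshold. The first spot alone gave 51, the second alone 45 and scaling to summed signal 32. The count was 12 and 13 after centring on analytes above the floor on both membranes or on all 8. The count of 2 higher was 0 with a 2-fold threshold, 1 with the second spot alone and 6 after scaling to summed signal. It was 12 and 11 after the same 2 centrings. The median log2 ratio of -0.80 over the 28 analytes above the floor on all membranes was -0.52 with a floor of 2%, -0.68 with the first spot alone, -0.13 after scaling to summed signal and 0.016 after centring on both membranes. On the centred scale the 11 higher became 25 with a floor of 0.5%, 3 with 2%, 4 with a 2-fold threshold, 24 with the first spot alone and 6 after scaling to summed signal. They became 7 when centring came before the floor, and 7 when the membrane with the higher value had to be above it, both chosen after seeing the data. The 13 lower became 25 with a floor of 0.5%, 7 with a 2-fold threshold, 32 after scaling to summed signal and 29 when centring came before the floor. CCL12 turned from lower to a log2 ratio of 0.15, 0.20 and 0.055 after centring on all 8, on both, and after scaling. Chitinase 3-like 1 turned to 0.15 and 0.20 and TIM-1 to 0.088 and 0.14 after these centrings, both at the floor in TC-1/IR. The cause of these shifts was not tested beyond the settings themselves. Limma called 0 analytes on either scale under each filter, floor, trend and left-out membrane, while up to 5 had an unadjusted p under 0.05. The smallest limma adjusted p was 0.356 as deposited and 0.620 centred, both without a buffer membrane. The term cannot be fitted without both combination membranes. No paired analysis was possible because groups of 1 membrane carry no numbers that link animals. Signal near the floor limits 42 of the 78 ratios to bounds.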
